A study of Mus musculus with 40 samples.

Results

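The 6 genes Dio1, Ttr, Thra, Thrb, Thrsp and Slc16a10, which handle thyroid hormone in the liver, were followed across a dose series of the dioxin TCDD. They were taken by name as genes of this pathway, with earlier results of these data known, and all 6 were among the 55359 gene identifiers of the count files and among the 15373 genes with enough reads to test. AhR, the aryl hydrocarbon receptor, is a transcription factor that dioxins bind and switch on. Hepatic RNA-seq was available for 40 male C57BL/6 mice, 5 at each of 8 dose levels. The vehicle group received 0.1 mL sesame oil by oral gavage, and the treated groups received TCDD in the same oil at 7 doses (0.03, 0.3, 3 and 30 µg/kg and, between them, 0.1, 1 and 10 µg/kg). Gavage was repeated every 4 days for 28 days (7 gavages), from 30 to 58 days of age, and the labels name no transgene or deletion in any group. The libraries held from 15496128 to 20967093 counts in genes. Each was the whole liver RNA of 1 mouse, so fewer hepatocytes and less RNA per hepatocyte cannot be told apart.

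The thyroid secretes mainly thyroxine, a prohormone that travels in plasma bound to carrier proteins made by the liver. Membrane transporters admit it to cells, deiodinases remove iodine to make or destroy the active hormone triiodothyronine, and nuclear receptors bound by triiodothyronine switch target genes on or off. The liver is a main site of deiodination, of conjugation for excretion and of hormone-driven lipid synthesis. Among the 6 genes, Dio1 encodes the deiodinase typical of liver, Ttr encodes the plasma carrier transthyretin and Slc16a10 encodes an aromatic amino acid transporter that also moves thyroid hormone. Thra and Thrb encode the alpha and beta receptors, the beta receptor being the form that predominates in hepatocytes. Thrsp encodes a hormone-responsive protein of fatty acid synthesis.

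At 30 µg/kg 5 of the 6 genes were called lower than in vehicle mice, and no increase was called at any of the 7 doses. In the comparison of each dose with vehicle, a gene was called when edgeR's quasi-likelihood test gave a Benjamini-Hochberg adjusted p under 0.05 over all genes tested and the fold change was at least 1.5. Ttr was the 1 gene called lower at 1 and at 3 µg/kg. Dio1, Thrb and Slc16a10 joined it at 10 µg/kg, and Thrsp at 30 µg/kg. Thra was 1.49-fold lower at 30 µg/kg (edgeR adjusted p = 0.00135), just under the fold required. The count of genes called lower was therefore 0 of 6 at 0.03, 0.1 and 0.3 µg/kg, 1 at 1 and at 3 µg/kg, 4 at 10 µg/kg and 5 at 30 µg/kg. Of all 15373 genes tested, the share called lower was 0% at 0.03 µg/kg, 0.013% at 0.1 µg/kg, 0.065% at 0.3 µg/kg and 0.637% at 1 µg/kg. It was 2.22% at 3 µg/kg, 8.13% at 10 µg/kg and 18.9% at 30 µg/kg, where a further 23.2% were called higher. At the 3 lowest doses 0 genes of the 6 were called by edgeR or by DESeq2, and an unadjusted p under 0.05 was reached by 1 gene, Ttr at 0.3 µg/kg, with either tool. Among all genes, edgeR called 0 lower at 0.03 µg/kg, where 185 were lower at an unadjusted p under 0.05 and DESeq2 called 6.

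**Figure D1:**
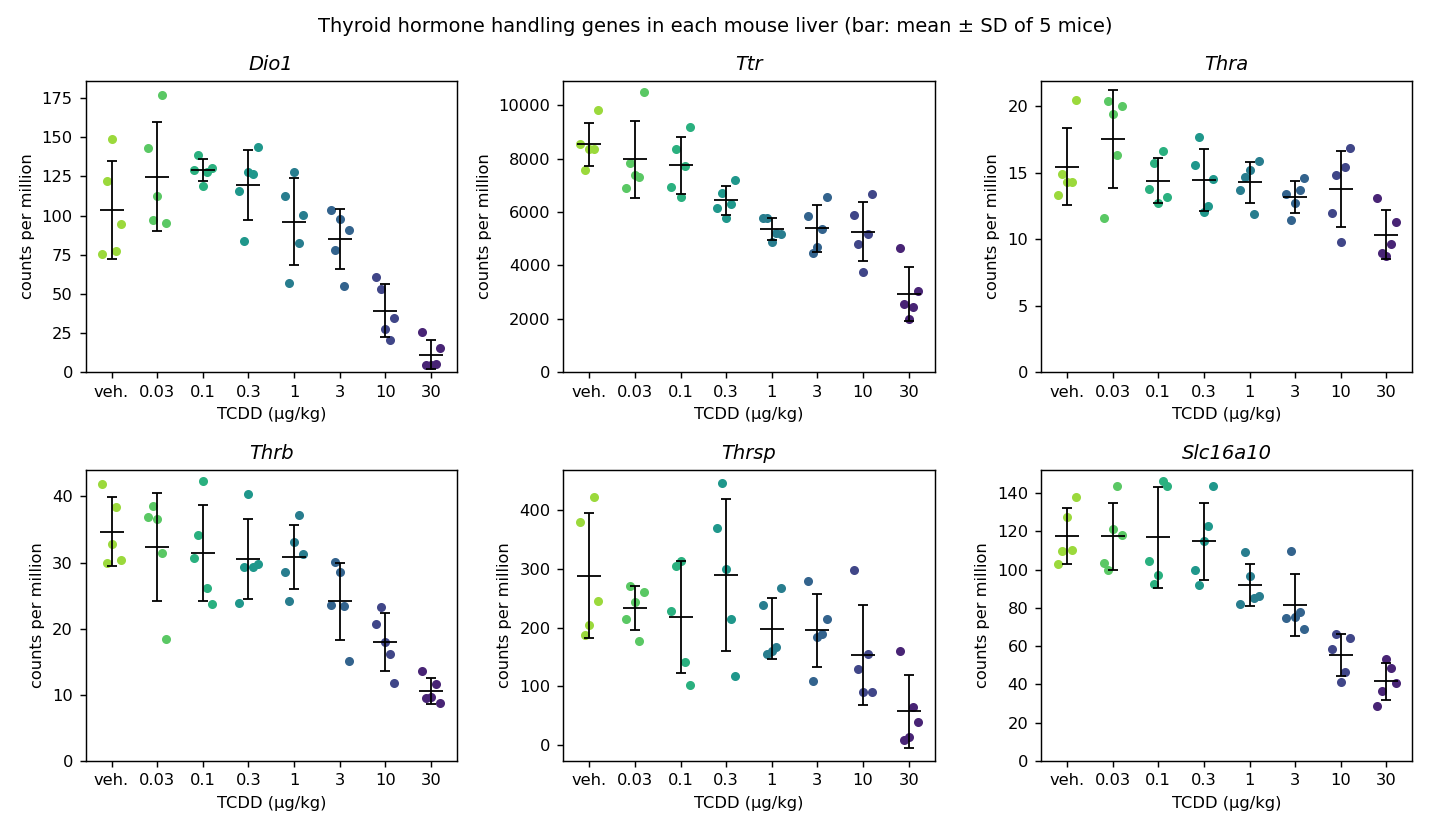
Read counts scaled to a common library size (CPM, vertical axes, linear) of the 6 genes in each mouse at vehicle (veh.) and 7 TCDD doses in µg/kg (horizontal axes). Points are single mice and the bar with whiskers is the mean ± SD of 5 mice. All 5 mice at 30 µg/kg lie under the vehicle mice in every panel, by a narrow margin for Thra (highest 13.1 against lowest 13.3).

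A linear slope over the ordered dose steps was negative in 6 of 6 genes at an edgeR adjusted p under 0.05, beside 26.1% of all genes tested. Per dose step, on the log2 scale, Dio1 fell by 0.35, Thrsp by 0.22, Slc16a10 by 0.21, Thrb by 0.20, Ttr by 0.18 and Thra by 0.07. The slope hides different shapes. The Ttr mean was lower at each dose up to 1 µg/kg, changed little from there to 10 µg/kg and was lower again at 30 µg/kg. The means of Slc16a10 and Thrb were lower at each dose from 3 µg/kg up. The lower values of Dio1 were concentrated at 10 and 30 µg/kg. The Thrsp mean was under vehicle at 1 and 3 µg/kg (log2 fold change -0.54 and -0.56, neither called) and lowest at 30 µg/kg.

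**Figure D2:**
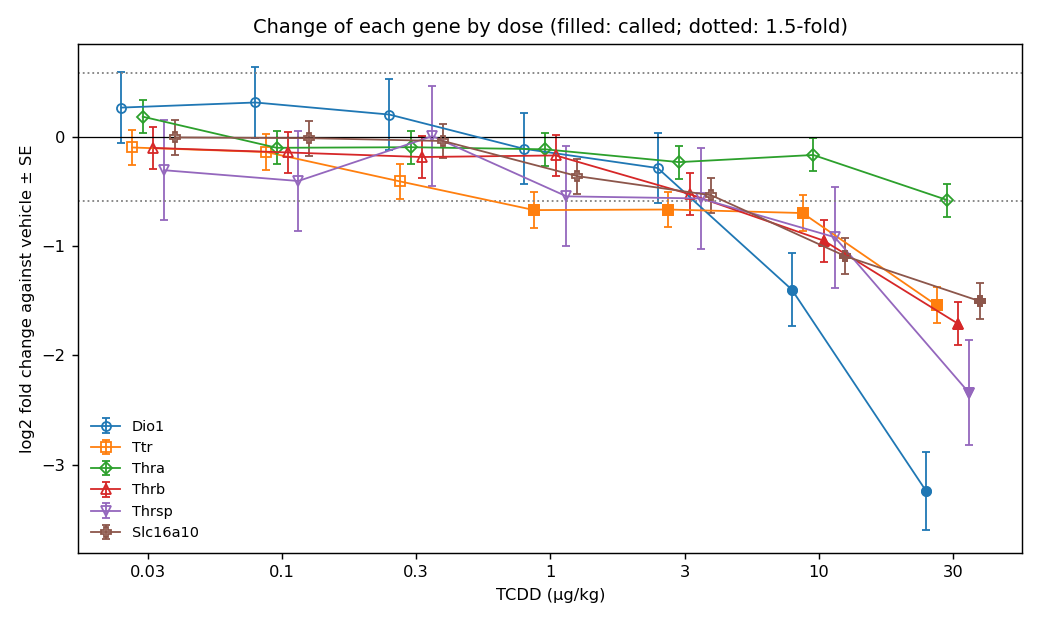
Log2 fold change against vehicle (vertical axis) ± SE from the edgeR fit for the 6 genes at each TCDD dose (horizontal axis, µg/kg). Filled symbols are called, open symbols are not, and dotted lines mark a 1.5-fold change. Dio1 has the lowest value at 30 µg/kg (-3.24) and Thra the value closest to 0 (-0.58).

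RefSeq start-site windows (GRCm38.p6) were held for 4 of the 6 genes, and none for Ttr or Thra. Every gene with a window is shown, and all 4 were called lower at 30 µg/kg, as was Ttr. In the 250 bases before each start, 2 sequence elements of this biology were sought. One was the core of the dioxin response element bound by AhR, GCGTG, and the other the hexamer half-site recognized by thyroid hormone receptors, AGGTCA. Both strands were searched and the matches did not overlap. Each sequence runs 5′ to 3′ on the gene's strand and ends at the base before the start, and capitals mark a match on either strand.
Dio1 (chr4:107307169-107307418, minus strand): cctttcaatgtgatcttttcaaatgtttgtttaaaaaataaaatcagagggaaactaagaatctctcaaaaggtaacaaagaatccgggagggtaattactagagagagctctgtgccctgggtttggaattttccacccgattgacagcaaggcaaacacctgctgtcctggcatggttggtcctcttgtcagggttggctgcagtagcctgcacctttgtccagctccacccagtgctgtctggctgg
Thrb (chr14:17660710-17660959, plus strand): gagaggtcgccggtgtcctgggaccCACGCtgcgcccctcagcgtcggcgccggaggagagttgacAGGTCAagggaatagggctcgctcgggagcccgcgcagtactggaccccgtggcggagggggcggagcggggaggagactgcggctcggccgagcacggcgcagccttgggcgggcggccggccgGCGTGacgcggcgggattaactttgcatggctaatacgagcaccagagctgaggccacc
Thrsp (chr7:97417551-97417800, minus strand): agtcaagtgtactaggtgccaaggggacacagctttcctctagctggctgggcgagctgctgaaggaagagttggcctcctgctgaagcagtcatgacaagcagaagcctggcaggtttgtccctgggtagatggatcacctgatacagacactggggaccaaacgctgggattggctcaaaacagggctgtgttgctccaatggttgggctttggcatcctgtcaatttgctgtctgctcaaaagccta
Slc16a10 (chr10:40142255-40142504, minus strand): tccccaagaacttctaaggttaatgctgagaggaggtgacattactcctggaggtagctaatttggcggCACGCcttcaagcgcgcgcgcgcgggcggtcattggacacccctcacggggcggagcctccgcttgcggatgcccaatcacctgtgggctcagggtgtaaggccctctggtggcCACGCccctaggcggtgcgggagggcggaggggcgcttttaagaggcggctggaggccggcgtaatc
The Thrb window held 2 dioxin response element cores and 1 half-site, and the Slc16a10 window held 2 cores and 0 half-sites. The Dio1 and Thrsp windows held neither, nor did a later Thrb start at chr14:17981394-17981643. The core was present in 28.2% and the half-site in 14% of the 32851 RefSeq windows of this length. The windows also differed in base composition, with a GC content of 71.6% for Thrb, 64.4% for Slc16a10, 53.6% for Thrsp and 46.8% for Dio1. A match is a string of letters and was not examined for binding.

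Dio1, whose product is a selenoenzyme that both activates thyroxine and clears inactive iodothyronines, had the largest fall of the 6 at 30 µg/kg. In vehicle mice 1 to 5 its level was 75.2, 122, 149, 77.5 and 94.6 CPM, which are read counts scaled to a common library size with edgeR's TMM method. At 10 µg/kg the 5 mice had 60.8, 53.3, 27.3, 20.5 and 34.5 CPM, and at 30 µg/kg they had 25.6, 4.58, 4.77, 4.92 and 15.2 CPM. All mice at either dose were under the lowest vehicle mouse. The fall was 2.63-fold at 10 µg/kg (log2 fold change -1.40, SE 0.33, edgeR adjusted p = 0.00108) and 9.44-fold at 30 µg/kg (-3.24, SE 0.36, edgeR adjusted p = 7.27e-10). At the 3 lowest doses the mean lay above vehicle, between 119.5 ± 22.4 and 129 ± 7.22 CPM (SD, n = 5) against 103.7 ± 31.4 CPM, within the spread of the vehicle mice. The direct comparison of 30 with 10 µg/kg, which does not use the vehicle mice, gave a 3.58-fold lower level (edgeR adjusted p = 5.65e-05). The numbers in the library titles run through the doses up to 27 and again from 28, and in the 19 libraries numbered up to 27 alone Dio1 was not called at 10 µg/kg (-1.03, edgeR adjusted p = 0.177) or between 10 and 30 µg/kg (-1.92, edgeR adjusted p = 0.0574).

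Between 3 and 10 µg/kg Dio1 was the 1 gene of the 6 called lower, beside 2.34% of all genes tested (2.16-fold, edgeR adjusted p = 0.0254). That call was lost when any 1 of 5 mice was left out (mice 1 and 3 at 3 µg/kg, mice 3, 4 and 5 at 10 µg/kg), with adjusted p between 0.0507 and 0.0879. Slc16a10 was 1.47-fold lower over the same step (edgeR adjusted p = 0.0218), under the fold required. Between 10 and 30 µg/kg 4 of the 6 were called lower (Dio1, Ttr, Thrb and Thrsp), beside 10.6% of all genes tested.

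The other deiodinases were at the limit of detection. Dio2, which activates thyroxine in brain and brown fat, had 0 counts in each of the 5 vehicle libraries, which allows up to 3 counts per library. It had 0, 14, 13, 13 and 7 counts in mice 1 to 5 at 30 µg/kg. Dio3, the inactivating deiodinase of fetal tissues, had at most 6 counts in any library. Neither passed the filter on low counts, so neither was tested, and no fold is given.

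Ttr, the carrier of thyroxine and of retinol-binding protein, was the most abundant of the 6 per length and was called at a lower dose than the other 5. Vehicle mice 1 to 5 had 8549, 7597, 8349.8, 8374 and 9817 CPM. At 1 µg/kg the 5 mice had 5791, 5787, 4870.01, 5201 and 5185 CPM, all under every vehicle mouse. The level was 1.59-fold lower than in vehicle mice at 1 µg/kg (log2 fold change -0.67, SE 0.16, edgeR adjusted p = 0.0111) and 1.58-fold lower at 3 µg/kg (edgeR adjusted p = 0.00517). At 10 µg/kg it was 1.62-fold lower (edgeR adjusted p = 0.000911). With libraries scaled by total counts the log2 fold changes were -0.58 at 1 µg/kg, -0.50 at 10 µg/kg and -0.57 for the step from 10 to 30 µg/kg, all under the fold required. In the 19 libraries with title numbers up to 27 alone Ttr was not called at 1, 3 or 10 µg/kg or over that step (edgeR adjusted p = 0.181, 0.0526, 0.069 and 0.17), and in the other 21 alone it was not called at 1 or 3 µg/kg (edgeR adjusted p = 0.336 and 0.294). The means at 1, 3 and 10 µg/kg were 5367 ± 407, 5387 ± 864 and 5268 ± 1105 CPM (SD, n = 5), and neighbouring groups in this range did not differ beyond their spread (exact permutation p between 0.794 and 0.984, two-sided). The 5 mice at 30 µg/kg had 4642, 2571, 1995, 2435 and 3024 CPM, which was 2.91-fold lower than vehicle (edgeR adjusted p = 3.88e-10) and 1.80-fold under the level at 10 µg/kg (edgeR adjusted p = 9.55e-05).

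Slc16a10, a facilitative carrier of aromatic amino acids and iodothyronines, was at 102.7, 109.7, 128, 110.5 and 138 CPM in vehicle mice 1 to 5. The 5 mice at 10 µg/kg had 58.3, 66.1, 41.3, 46.3 and 64.0 CPM, and those at 30 µg/kg had 28.5, 36.4, 53.3, 48.5 and 40.8 CPM. Both groups lay under every vehicle mouse and overlapped each other. The level was 2.13-fold lower at 10 µg/kg (log2 fold change -1.09, SE 0.16, edgeR adjusted p = 1.63e-06) and 2.83-fold lower at 30 µg/kg (-1.50, SE 0.16, edgeR adjusted p = 5.56e-10). At 3 µg/kg it was 1.45-fold lower (edgeR adjusted p = 0.0258) and not called, and without mouse 2 of that group, which had 109.8 CPM, the log2 fold change was -0.67 and the gene was called. The step from 10 to 30 µg/kg was 1.33-fold (edgeR adjusted p = 0.0478), under the fold required.

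Of the 2 receptor genes, Thrb was called at 10 and 30 µg/kg and Thra at no dose. Thrb was at 41.9, 30.0, 32.8, 38.4 and 30.4 CPM in vehicle mice 1 to 5, and at 20.6, 23.2, 17.9, 16.2 and 11.7 CPM at 10 µg/kg. The 5 mice at 30 µg/kg had 13.6, 9.49, 9.72, 11.6 and 8.69 CPM. No mouse at either dose reached the lowest vehicle mouse. The decrease was 1.93-fold at 10 µg/kg (log2 fold change -0.95, SE 0.19, edgeR adjusted p = 0.000162) and 3.27-fold at 30 µg/kg (-1.71, SE 0.20, edgeR adjusted p = 1.71e-09). The step from 10 to 30 µg/kg was 1.69-fold (edgeR adjusted p = 0.00234), a call lost when libraries were scaled by total counts (-0.50, edgeR adjusted p = 0.0682) and in the libraries with title numbers from 28 alone (-0.64, edgeR adjusted p = 0.0833).

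Thra was at 13.3, 14.9, 14.3, 14.3 and 20.5 CPM in vehicle mice 1 to 5 and at 13.1, 8.99, 8.69, 9.61 and 11.3 CPM at 30 µg/kg. The log2 fold change at 30 µg/kg was -0.58 (SE 0.15, edgeR adjusted p = 0.00135), and from 0.03 to 10 µg/kg it lay between -0.23 and 0.19 with adjusted p of at least 0.389. Thra rests on 188 to 321 counts per library at 10 and 30 µg/kg. In the GENCODE M21 annotation 263 of its 4614 exon bases (5.7%) overlap Nr1d1, a clock repressor gene on the opposite strand, and the libraries did not mark strand. Reads that overlap more than 1 gene cannot be assigned and were set aside by the counter in the unstranded counts used. Nr1d1 itself fell at 30 µg/kg (log2 fold change -1.99, SE 0.66, edgeR adjusted p = 0.0107), with vehicle mice spread from 5.17 to 45.3 CPM. Without vehicle mouse 5 the Nr1d1 call was lost (-1.54, edgeR adjusted p = 0.0544), as it was in the libraries with title numbers up to 27 alone (-1.33, edgeR adjusted p = 0.16). Leaving out the 30 µg/kg mouse 1 took Thra past the fold required (-0.68, edgeR adjusted p = 0.000352). Leaving out vehicle mouse 1, 2, 3 or 4, mouse 3 at 0.1 µg/kg or mouse 5 at 30 µg/kg did so too. Over all mice left out in turn the log2 fold change ranged from -0.68 to -0.46. Vehicle mouse 5 was at 20.5 CPM where the other vehicle mice had 13.3 to 14.9 CPM.

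Because a ratio of 2 genes within a library does not depend on scaling between libraries, Thrb was also set against Thra in each mouse, per kilobase of exon. Vehicle mice 1 to 5 had Thrb to Thra ratios of 1.97, 1.26, 1.43, 1.68 and 0.926, and mice at 30 µg/kg had ratios of 0.647, 0.658, 0.697, 0.749 and 0.479. Thus, per kilobase of annotated exon, 4 of 5 vehicle mice and 0 of 5 mice at 30 µg/kg had more Thrb than Thra. That crossing depends on the exon lengths used (7403 bases for Thrb and 4614 for Thra). Before division by length the means at 30 µg/kg were 10.6 CPM for Thrb and 10.3 CPM for Thra. At 10 µg/kg the ratios were 1.08, 0.977, 1.14, 0.654 and 0.434 and overlapped the vehicle range. The mean log2 ratio was lower by 1.14 at 30 µg/kg (-0.65 ± 0.25 against 0.49 ± 0.41, SD, n = 5, two-sided exact permutation p = 0.00794, adjusted p = 0.0741). It was lower by 0.80 at 10 µg/kg (exact permutation p = 0.0397, adjusted p = 0.185). The p of 0.00794 is the smallest that 5 against 5 mice can give, and 28 ratio tests were adjusted together. Had 5 of the 28 reached it, they would have passed 0.05 after adjustment, but 3 did. In all, 0 passed after adjustment while 6 had an unadjusted p under 0.05.

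The ratio of Dio1 to Ttr, the enzyme against the carrier, went at 30 µg/kg from a mean log2 ratio of -7.14 ± 0.48 to -9.12 ± 0.76 (SD, n = 5, exact permutation p = 0.00794, adjusted p = 0.0741), with all 5 mice under all vehicle mice. From 0.03 to 3 µg/kg its mean lay above that of the vehicle mice by 0.39 to 0.64, with exact permutation p between 0.0556 and 0.270. Ttr was the earlier of the 2 genes to be called, and Dio1 the one with the larger fold change at 30 µg/kg.

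**Figure D3:**
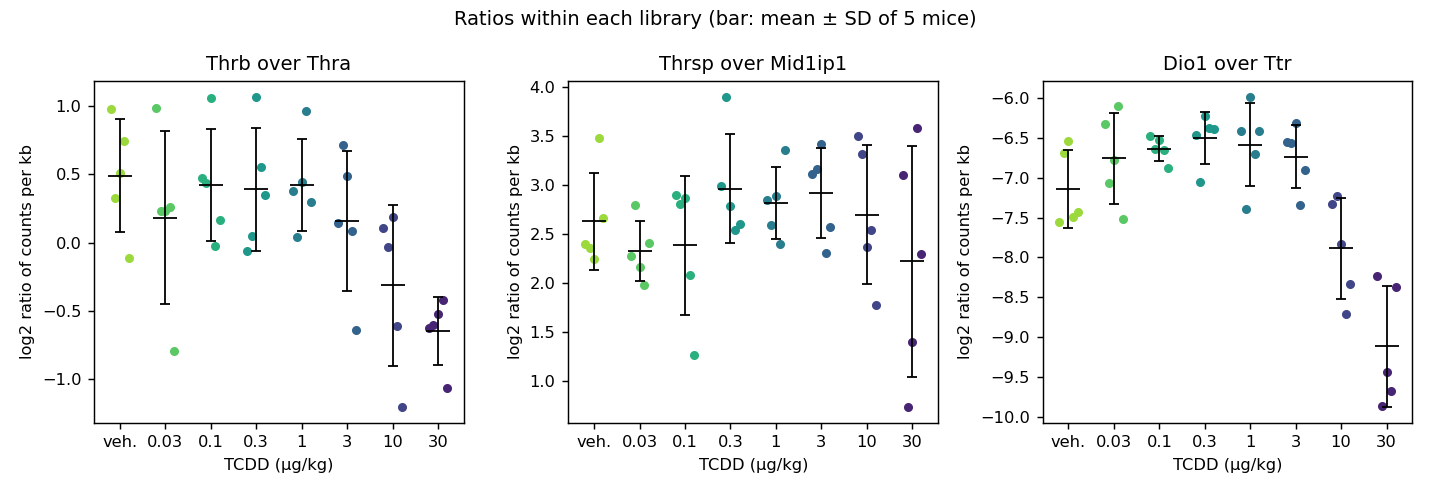
Log2 ratio of counts per kilobase of exon (vertical axes) of 3 gene pairs in each library, by TCDD dose in µg/kg (horizontal axes). Points are single mice and bars are the mean ± SD of 5 mice. Thrb over Thra and Dio1 over Ttr are lowest at 30 µg/kg, while Thrsp over Mid1ip1 at 30 µg/kg overlaps the vehicle mice.

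Thrsp, whose product promotes fatty acid synthesis and whose transcription is driven by triiodothyronine, carbohydrate and insulin, varied widely between mice. Vehicle mice 1 to 5 had 380.5, 188, 205, 423 and 245 CPM, and mice at 10 µg/kg had 298, 129.9, 90.4, 154 and 90.4 CPM. For the 30 µg/kg group the values were 160.2, 8.28, 13.3, 64.0 and 39.0 CPM, so the spread within that group was wide. All 5 were under the lowest vehicle mouse. The decrease was 5.06-fold at 30 µg/kg (log2 fold change -2.34, SE 0.48, edgeR adjusted p = 7.69e-05). At 10 µg/kg the log2 fold change was -0.92 (SE 0.46, edgeR adjusted p = 0.129), which became -1.31 and a call without mouse 1 of that group (edgeR adjusted p = 0.0381). The step from 10 to 30 µg/kg was 2.68-fold (edgeR adjusted p = 0.0176). It was no longer called without mouse 1 at 10 µg/kg (adjusted p = 0.101) or without mouse 3 at 30 µg/kg (adjusted p = 0.0562). In the libraries with title numbers up to 27 alone Thrsp was called neither at 30 µg/kg against vehicle (-1.63, edgeR adjusted p = 0.102) nor over that step (-1.35, edgeR adjusted p = 0.347).

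Mid1ip1 is a paralog of Thrsp, and its product activates acetyl-CoA carboxylase. It was at 44.5 ± 14.6 CPM in vehicle mice, 21.4 ± 6.14 CPM at 10 µg/kg and 8.15 ± 5.69 CPM at 30 µg/kg (SD, n = 5). Its log2 fold change was -1.06 at 10 µg/kg (edgeR adjusted p = 0.00478) and -2.46 at 30 µg/kg (edgeR adjusted p = 1.39e-08). In the annotation 25.5% of its exon bases overlap Gm14493 on the opposite strand. The log2 ratio of Thrsp to Mid1ip1 differed from vehicle by -0.40 at 30 µg/kg (2.22 ± 1.17 against 2.63 ± 0.50, SD, n = 5, exact permutation p = 0.5, adjusted p = 0.609), within the spread of the mice.

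Set per kilobase of exon, the vehicle order of mean levels was Ttr (7198 CPM per kilobase), Thrsp (132), Dio1 (52.6), Slc16a10 (16.0), Thrb (4.69) and Thra (3.35). At 30 µg/kg the order was Ttr (2473), Thrsp (26.0), Slc16a10 (5.64), Dio1 (5.60), Thra (2.24) and Thrb (1.43), so that both Dio1 and Thrb had moved down 1 place. Slc16a10 at 5.64 ± 1.33 and Dio1 at 5.60 ± 4.74 (SD, n = 5) did not differ beyond their spread. These places depend on the exon lengths used, and the changes of order were not tested. Across doses, the groups of each gene were also put in order of mean level, and the 42 pairs of neighbours were compared by a two-sided exact permutation test on log2 CPM. The 30 µg/kg group was the lowest for all 6 genes. By this exact permutation test it differed from the next group at an unadjusted p of 0.0159 for Dio1, Ttr and Thrb, 0.0317 for Thra and 0.0476 for Thrsp, but not for Slc16a10 (p = 0.0794). The groups at 3 and 10 µg/kg differed for Dio1 (exact permutation p = 0.0159) and Slc16a10 (p = 0.00794), and those at 0.1 and 0.3 µg/kg for Ttr (p = 0.0476). Thus 8 of 42 pairs had an unadjusted p under 0.05 and 0 had an adjusted p under 0.05, the lowest being 0.133. The smallest exact permutation p that 5 against 5 mice can give is 0.00794. With 42 pairs adjusted together, a pair at that p could not pass on its own. Vehicle was the highest group for Ttr, Thrb and Slc16a10, but 0.1 µg/kg was highest for Dio1, 0.03 µg/kg for Thra and 0.3 µg/kg for Thrsp, in each case without a difference from its neighbour beyond the spread.

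Mouse 1 at 30 µg/kg stood apart from the other 4 of its group. On the first principal component of all genes (47.6% of the variance) it scored 81.7 where the others scored 129 to 147 and no mouse at a lower dose passed 67.8. It had the highest level of that group for Dio1, Ttr, Thra, Thrb and Thrsp and the lowest for Slc16a10. Without it the log2 fold changes at 30 µg/kg were -3.82 for Dio1, -1.77 for Ttr, -0.68 for Thra, -1.82 for Thrb, -3.21 for Thrsp and -1.40 for Slc16a10, and 6 of 6 genes were called lower. The titles number the mice through the doses once up to 27 and again from 28, and the labels do not say what this marks. In the 19 libraries of the first set the log2 fold changes at 30 µg/kg were -2.95 (Dio1), -1.19 (Ttr), -0.37 (Thra), -1.61 (Thrb), -1.63 (Thrsp) and -1.82 (Slc16a10). Neither Thrsp (edgeR adjusted p = 0.102) nor Thra (edgeR adjusted p = 0.181) was called there. In the 21 libraries of the second set they were -3.40, -1.90, -0.85, -1.81, -3.13 and -1.42, in the same order, and all were called. The Ttr calls at 1 and 3 µg/kg did not hold in either set alone, where the log2 fold changes lay between -0.58 and -0.81 at 1 µg/kg and between -0.60 and -0.72 at 3 µg/kg. The AhR target Cyp1a1, the check of the labels, was at 6230 CPM in that mouse and at 4749.9 to 6376 CPM in the other 4, against 0.979 to 2.33 CPM in vehicle mice. Cyp1a1 was higher than in vehicle mice at every dose, with a log2 fold change of 6.42 at 0.03 µg/kg. Its mean was highest at 3 µg/kg (6814 ± 1059 CPM) and was 5767 ± 666 CPM at 30 µg/kg (SD, n = 5).

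Markers of other cell types moved with these decreases. The summed level of 6 hepatocyte markers without Ttr was 90625 to 110304 CPM in vehicle mice and 27098 to 55572 CPM at 30 µg/kg. Most of that sum was Alb, at 83015 ± 7115 CPM in vehicle mice and 34527 ± 10859 CPM at 30 µg/kg (SD, n = 5). Of the list's 7 genes including Ttr, 6 were called lower, and Hnf4a, a hepatocyte transcription factor, was not called. The macrophage list rose from 130.1 to 182 CPM in vehicle mice to 452 to 1124 CPM at 30 µg/kg, with 6 of 6 markers called higher. The stellate cell and fibroblast list went from 140.1 to 248 CPM to 486 to 1061 CPM (5 of 6 called higher), and the cholangiocyte list from 37.2 to 48.4 CPM to 67.5 to 333 CPM (4 of 5 higher, Sox9 lower). Endothelial markers were at 132 to 175 CPM and then at 234 to 314 CPM (3 of 5 higher), and T and B cell markers at 2.80 to 4.78 CPM and then at 4.66 to 13.0 CPM (5 of 6 higher). Neutrophil markers reached at most 28.7 CPM in sum at 30 µg/kg, with 3 of 5 tested and called higher, Ly6g and Mpo being at 0 in all vehicle mice. Adipocyte markers reached at most 0.337 CPM at 30 µg/kg, with Adipoq and Lep at 0 at 30 µg/kg and 0 of 2 tested markers called. The part of these shifts in the 6 genes' decreases was not tested.

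Against Alb, the most abundant hepatocyte transcript on the marker list, 2 of the 6 genes differed at 30 µg/kg after adjustment. These 6 ratios were added after the data had been seen, and their p-values were adjusted over the 6. Dio1 was lower than in vehicle mice by a log2 ratio of 2.26 at 30 µg/kg, from -9.44 ± 0.51 to -11.7 ± 0.77 (SD, n = 5, exact permutation p = 0.00794, adjusted p = 0.0238). Thra was higher by 0.74 (exact permutation p = 0.00794, adjusted p = 0.0238), its log2 fold change being closer to 0 than that of Alb. The other 4 did not pass after adjustment, with differences of -1.70 for Thrsp (exact permutation p = 0.0317, adjusted p = 0.0595), -0.28 for Ttr (p = 0.0397, adjusted p = 0.0595), -0.40 for Thrb (p = 0.0794, adjusted p = 0.0952) and -0.21 for Slc16a10 (p = 0.595, adjusted p = 0.595).

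Beyond the 6 genes, 57 other genes of the pathway were examined in 7 lists. At 30 µg/kg 27 were called lower and 8 higher, 19 were tested and not called, and 3 (Slco1c1, Dio2 and Dio3) had too few reads. Of all genes tested, 18.9% were called lower and 23.2% higher in the same comparison, and each list's counts stand beside those shares. Their median log2 fold change was -0.71 beside 0.03 for all genes tested, and that of the 6 genes was -1.63.

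**Figure D4:**
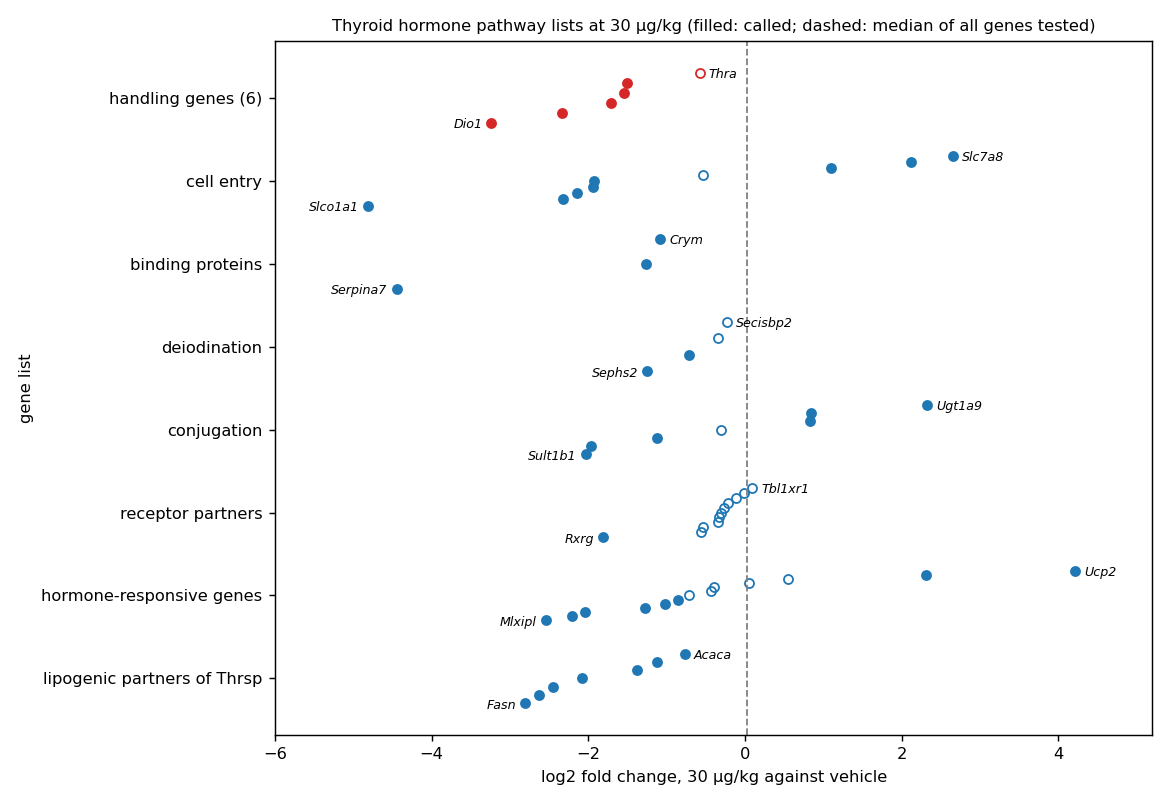
Log2 fold change at 30 µg/kg against vehicle (horizontal axis) for the 6 thyroid hormone handling genes and the tested genes of 7 pathway lists (rows). Filled points are called, open points are not, the outermost gene of each row is named, and the dashed line is the median of all genes tested (0.03). All 3 binding proteins and all 7 lipogenic partners of Thrsp are called lower, whereas 10 of 11 receptor partners are not called.

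Among the cell entry genes, 5 of the 9 tested were called lower, beside 18.9% of all genes, and 3 were called higher, beside 23.2%, with a list median of -1.93. Slco1a1, an organic anion transporter of the hepatocyte's sinusoidal membrane, went from 352 ± 68.3 to 12.5 ± 8.24 CPM (log2 fold change -4.81, edgeR adjusted p = 1.03e-12). Slc10a1, the sodium-dependent bile acid transporter of the same membrane, fell from 581 ± 71.0 to 117 ± 74.2 CPM (-2.32, edgeR adjusted p = 7.26e-12). The amino acid transporter chains Slc7a8 and Slc3a2, which pair to carry neutral amino acids and iodothyronines, rose instead. Slc7a8 rose from 3.76 ± 0.54 to 23.6 ± 7.49 CPM (2.65, edgeR adjusted p = 7.06e-12) and Slc3a2 from 52.0 ± 7.06 to 226 ± 17.9 CPM (2.12, edgeR adjusted p = 3.47e-16). Slc7a5, the other light chain on the list, was also called higher, and both chains of the Slc7a8 pair were already higher at 3 µg/kg.

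All 3 binding protein genes were called lower at 30 µg/kg, with a median of -1.27. Serpina7, which encodes thyroxine-binding globulin, was the 1 gene of the 57 called lower at 0.3 µg/kg. Its 5 vehicle mice had 57.5, 31.3, 31.5, 48.8 and 35.5 CPM. The mean was 14.1 ± 2.03 CPM at 0.3 µg/kg (SD, n = 5, log2 fold change -1.54, edgeR adjusted p = 0.0173), 6.56 ± 2.5 CPM at 1 µg/kg (-2.64, edgeR adjusted p = 3.82e-06) and 1.77 ± 0.90 CPM at 10 µg/kg (-4.51, edgeR adjusted p = 4.34e-11). At 30 µg/kg the mice had 0.509, 3.79, 1.07, 1.31 and 2.66 CPM (-4.45, edgeR adjusted p = 5.64e-12), with a mean of 1.87 ± 1.33 CPM. Thus the plasma carrier genes Serpina7 and Ttr were called at 1 µg/kg, where Dio1 and the receptors were not. Alb, the low-affinity carrier, was not called until 30 µg/kg (-1.27, edgeR adjusted p = 2.97e-08).

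In the deiodination list, which holds the selenoprotein machinery that Dio1 depends on, 4 of 6 genes were tested, of which 2 were called lower, beside 18.9% of all genes, and 0 higher (median -0.53). Sephs2, which makes the selenium donor, fell from 646 ± 67.1 to 271 ± 34.3 CPM (log2 fold change -1.25, edgeR adjusted p = 3.09e-12). Sepsecs, which completes selenocysteine on its transfer RNA, fell from 60.5 ± 9.08 to 36.7 ± 11.5 CPM (-0.72, edgeR adjusted p = 0.00184), a call that was lost when libraries were scaled by total counts (-0.24). It was also lost in the libraries with title numbers up to 27 alone (-0.50, edgeR adjusted p = 0.063). At 10 µg/kg Sephs2 was 1.48-fold lower (log2 fold change -0.57, edgeR adjusted p = 8.01e-05), just under the fold required and with all 5 mice under the vehicle range. Sepsecs was at -0.32 there (edgeR adjusted p = 0.225).

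Conjugation genes, which prepare iodothyronines for excretion, moved both ways, with 3 of 7 called lower and 3 higher (median -0.31). The sulfotransferases Sult1b1 (21.6 ± 1.38 to 5.32 ± 3.45 CPM, log2 fold change -2.03, edgeR adjusted p = 8.65e-10) and Sult1a1 (282 ± 45.7 to 71.8 ± 16.1 CPM, -1.97, edgeR adjusted p = 7.3e-14) fell. The glucuronosyltransferase Ugt1a9 rose from 39.3 ± 8.37 to 197 ± 51.6 CPM (2.32, edgeR adjusted p = 1.31e-13). It was called higher from 0.1 µg/kg on (1.42, edgeR adjusted p = 2.38e-06). Ugt1a6a rose from 9.78 ± 3.43 to 17.5 ± 3.64 CPM (0.84, edgeR adjusted p = 0.0211), a call lost without vehicle mouse 2 (adjusted p = 0.0583) or 5 (adjusted p = 0.0720) and in the libraries with title numbers from 28 alone (0.71, adjusted p = 0.294). Isoforms of the Ugt1a locus share their downstream exons, so reads there could not be assigned to 1 of them and these levels are uncertain.

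Of 11 receptor partners, the retinoid X receptors that pair with the thyroid hormone receptors and the corepressors and coactivators they recruit, 1 was called lower and 0 higher (median -0.31). That gene was Rxrg, which went from 7.09 ± 1.74 to 2.03 ± 1.63 CPM (log2 fold change -1.82, edgeR adjusted p = 5.27e-06). The other 10 had log2 fold changes from -0.56 to 0.09. Of 13 hormone-responsive genes 6 were called lower and 2 higher (median -0.71). The 2 called higher were Hr and Ucp2, and 5 were not called (Me1, Klf9, Bcl3, Cpt1a and Cyp7a1). Mlxipl, a carbohydrate-sensing activator of lipogenesis, fell from 561 ± 108 to 96.5 ± 21.7 CPM (-2.54, edgeR adjusted p = 5.1e-15). Pck1, a gluconeogenic enzyme, fell from 1604 ± 619 to 347 ± 198 CPM (-2.21, edgeR adjusted p = 3.6e-05), a call lost in the libraries with title numbers up to 27 alone (-1.68, adjusted p = 0.0674). Ucp2 encodes a mitochondrial carrier that is abundant in macrophages and scarce in healthy hepatocytes. It rose from 25.1 ± 3.78 to 464 ± 118 CPM (4.21, edgeR adjusted p = 1e-18), and the macrophage list rose in the same comparison. Ucp2 was already called higher at 0.3 µg/kg, a dose at which 0 of 6 macrophage markers were called. At 1 µg/kg its log2 fold change was 1.98 (edgeR adjusted p = 1.87e-09). The macrophage list median at 1 µg/kg was 0.82, with 3 of 6 markers called higher. The part of the macrophages in the Ucp2 rise was not tested.

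All 7 lipogenic partners of Thrsp were called lower at 30 µg/kg (median -2.08), beside 18.9% of all genes, and 4 of 7 at 10 µg/kg, beside 8.13% of all genes, where Thrsp was not called. Fasn, fatty acid synthase, went from 1052 ± 312 to 150.1 ± 155 CPM (log2 fold change -2.81, edgeR adjusted p = 8.87e-08). Acly, which supplies cytosolic acetyl-CoA, went from 498 ± 146 to 80.1 ± 56.9 CPM (-2.64, edgeR adjusted p = 3.06e-10). Like Thrsp itself, Fasn had an SD as large as its mean at 30 µg/kg.

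The genes whose log2 CPM tracked each of the 6 most closely over the 40 libraries are given as a description, since all 40 share the dose series and its cell type shifts. For Thrsp they were the lipid synthesis genes Fasn (Pearson r = 0.931), Sc5d (0.919) and Srebf1 (0.919). For Thrb they were Apob (0.970), Slco1b2 (0.966) and Arhgap42 (0.965), and for Ttr the secreted hepatocyte protein gene Ahsg (0.963), Hgd (0.949) and Ptms (0.949). Dio1 tracked Wfdc21 (0.965), Serpina3k (0.962) and the major urinary protein gene Mup3 (0.962), and Slc16a10 tracked Gfra1 (0.953), Smagp (0.937) and Pla1a (0.919). Thra had the weakest likeness, to Ass1 (0.829), Slc29a1 (0.810) and Parp16 (0.799). Among the 6 genes the correlation was highest for Dio1 with Thrb (0.832) and Dio1 with Ttr (0.829) and lowest for Thra with Thrb (0.416).

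Scaling by total counts alone raised the median of all genes at 30 µg/kg to a log2 fold change of 0.52, against 0.03 with TMM, and changed the split of calls from 55.1% higher to 80.4% higher. Relative to that median the 6 genes were at -3.32 (Dio1), -1.59 (Ttr), -0.61 (Thra), -1.75 (Thrb), -2.43 (Thrsp) and -1.52 (Slc16a10). Before that adjustment Thra was at -0.09 (edgeR adjusted p = 0.535), and the other 5 were still called lower. Of the 3 reference genes examined, Actb and Hprt were called higher at 30 µg/kg and Gapdh was not called.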

How the data were processed

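Total liver RNA of 40 mice was sequenced as paired-end reads of 150 bp. Per the labels' processing notes, the authors used FastQC 0.11.7, Trimmomatic 0.39 and STAR 2.7.3a. The notes name the builds GRCm39 and mm10 without a role, and the annotation was not given in the sources used here. From the authors come unnormalized gene counts (the unstranded column was used) and a deposited table of log2 values, which equalled a blind variance-stabilizing transformation of those counts to within 5.03e-10.

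Groups came from the dose label. Symbols for 52083 of 55359 identifiers, and exon lengths, came from GENCODE M21. Reads that overlap more than 1 gene, 4.84 to 5.90% per library, were set aside by the counter, and the first-strand share was 50.0 to 50.3%, as unstranded libraries give. Counts were tested with edgeR 4.0.16 (R 4.3.3): filterByExpr, TMM scaling and a quasi-likelihood fit over all 40 libraries with 1 mean per group, Benjamini-Hochberg adjusted over the 15373 genes kept, called at adjusted p under 0.05 and a fold of at least 1.5. The study's own posterior probability was not computed. Each dose is compared with the same 5 vehicle mice, so these comparisons are not independent. The fits were tested on simulated data. CPM were on TMM-scaled library sizes, and log2 CPM used a prior count of 2. Ratios and neighbouring groups were compared by exact permutation tests (SciPy 1.17.1).

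The 6 genes and all lists (pathway, AhR target, reference and cell type marker genes) were chosen with earlier results of these data known. From each pathway list, up to 2 called genes with the largest rise and 2 with the largest fall at 30 µg/kg were named among those with a mean of at least 100 counts in the higher group, plus Mid1ip1, Nr1d1, Dio2, Dio3 and Serpina7. The 28 ratio tests and the list counts include 1 further gene that is not reported here. Genes of like pattern were the 3 with the highest Pearson correlation among 9308 genes with a mean of at least 100 counts. Other genes are named only to state which members of a list were called or not called, and were picked after their values were seen. Alternatives were RLE and total-count scaling, DESeq2 1.42.0, 2 other count filters, fits on fewer libraries, the title number as covariate, the strand-specific counts, limma 3.58.1 on the deposited log2 values, no fold threshold and each mouse left out. The 80 pairs of mice within groups differed by far more than sampling noise (chi-square per gene 11.1 to 196).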

Additional observations from a re-analysis of the deposited data

Results flagged for a closer look

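In 3 of the 48 groups of 5 mice examined for the 6 genes, 1 mouse lay far from the other 4 by Dixon's test. Chance gives this in about 1 in 20 groups. For Ttr at 0.03 µg/kg it was mouse 5, at 10488 CPM where the other 4 had 6903 to 7832 CPM. For Thra in the vehicle group it was mouse 5, at 20.5 CPM where the others had 13.3 to 14.9 CPM. For Slc16a10 at 3 µg/kg it was mouse 2, at 109.8 CPM where the others had 69.0 to 78.0 CPM. Without the last mouse Slc16a10 was called lower at 3 µg/kg.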

How the results depend on the processing

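No result changed direction among the 52 alternatives for each of the 6 genes at 30 µg/kg against vehicle, and Dio1, Ttr, Thrb and Slc16a10 were called under all of them. Thrsp was not called in the 19 libraries with title numbers up to 27 alone (-1.63, adjusted p = 0.102). Thra passed both thresholds in the fit of vehicle and 30 µg/kg alone (-0.59), in the 21 libraries with title numbers from 28 alone (-0.85) and with the strand-specific counts (-0.76). The libraries did not mark strand, so the strand-specific counts of Thra can include reads from its overlap with Nr1d1, whose part was not tested. The Thra value of -0.58 passed on adjusted p alone where no fold threshold was set. With 1 mouse left out its log2 fold change ranged from -0.68 to -0.46. The count of the 6 genes called lower at 1 µg/kg went from 1 to 0 with total counts and in either set of title numbers alone. At 3 µg/kg it went to 0 in either set alone, to 2 without a fold threshold, and lay between 1 and 2 with a mouse left out (2 without mouse 2 at 3 µg/kg). At 10 µg/kg it went from 4 to 2 in the first set alone. For the step from 10 to 30 µg/kg it went from 4 to 2 with total counts and in the first set alone. For the step from 3 to 10 µg/kg it went from 1 to 0 in the first set alone, to 2 without a fold threshold, and lay between 0 and 2 with a mouse left out (0 without mouse 3 or 4 at 10 µg/kg, 2 without mouse 2 at 10 µg/kg or mouse 5 at 3 µg/kg). The first set holds 2 or 3 mice per group, fewer than the whole, and the cause of the other changes was not tested. The counts of pathway genes called at 30 µg/kg were 22 to 36 lower and 6 to 9 higher across settings. No paired analysis was possible because the labels carry no replicate numbers, and the numbers used here only name mice in accession order. The title numbers run through the doses once up to 27 and again from 28, which the labels do not explain. Depth limits Dio1 at 30 µg/kg (110 to 554 counts per library) and Thra (188 to 321 at 10 and 30 µg/kg).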
